A study of Homo sapiens with 4 samples.

Results

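EBC-CR1, a lung cancer cell line made resistant to capmatinib, was set against EBC-1, the parental line from which it was grown. RNA of each line was sequenced as 1 library from 1 culture, so the comparison is of 1 library with 1 library, 2 of the 4 libraries of the study, and no test of the difference between the lines can be made. Of 26364 gene symbols, 14329 reached a log2 level of 3.32 or more in at least 1 of both libraries and were compared. Another 12030 were below that level in both, the highest of them at 3.29, while the lowest gene kept was at 3.32, and 5 blood genes described further on were set aside. A level is log2(units + 1), where a unit is the authors' normalized read measure, and a difference is the EBC-CR1 level minus the EBC-1 level, so 1 stands for 2-fold. Where a pair of levels is given, the parental level comes first.

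EBC-1 is an established line labelled as lung squamous cancer, with extra copies of the MET gene, and was taken at passages 35 to 37. EBC-CR1 was selected in rising capmatinib up to 1.5 µmol/L, was then held in 1 µmol/L, and was taken at passages 64 to 66. EBC-CR2 and EBC-CR3, used here only where EBC-CR1 is set beside them, were selected up to 2.2 and 2.4 µmol/L, held in 1 µmol/L and taken at passages 81 to 83. The resistant lines all derive from EBC-1 and its amplified MET. The sources used here do not give whether capmatinib was present when RNA was taken or whether a line is 1 clone. Resistance, exposure to the drug and passage number cannot be told apart. Inside the deposited files, 2 column headers carry the opposite number: EBC-R3 stands at the head of the EBC-CR1 values, and EBC-R1 at the head of the EBC-CR3 values. Names here follow the sample labels. If the headers are right, every EBC-CR1 value below belongs to EBC-CR3 and the reverse.

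MET is the receptor kinase for hepatocyte growth factor, and tumour cells with extra MET copies depend on the signals it sends through the ERK and phosphoinositide 3-kinase cascades. Capmatinib blocks its kinase. Cells kept under such a drug can grow again through other receptors, through mutations of the pathway, or in another transcriptional state, and genes controlled by NF-kB, AP-1 and YAP are common readouts of such states in lung cancer cells.

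Estimated depth was 34.7 M reads in EBC-1 and 21.5 M in EBC-CR1, and 19.3 M and 23.3 M in EBC-CR2 and EBC-CR3. At these depths 3 reads are worth 2.16 units in EBC-1 and 3.49 in EBC-CR1, so a level of 0 does not show that a gene is silent, and genes with a 0 get no fold. Intervals given below are 95% exact binomial (Clopper-Pearson) counting intervals of the ratio, which cover counting error only and say nothing of the spread between cultures. Each library was deposited on nearly the same distribution of values, so a difference in the total RNA of a cell cannot be seen, and fewer cells of a kind in a culture cannot be told apart from less RNA per cell.

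In EBC-CR1, 1941 of the 14329 genes (13.5%) were at least 2-fold higher than in EBC-1 and 2015 (14.1%) at least 2-fold lower, 27.6% in all. The median difference was -0.06, with quartiles of -0.60 and 0.50. At 8-fold or more the balance leaned upward, with 528 genes higher and 343 lower, and at 16-fold or more it was 286 and 151. The counting interval lay wholly past 2-fold for 1323 higher and 1090 lower genes. Differences were most frequent among low genes: 74.3% of genes with a mean level under 4 were past 2-fold, against 14.1% of those at 12 or more. The gene-by-gene plot shows the higher genes spread far above the diagonal at low parental levels.

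**Figure D1:**
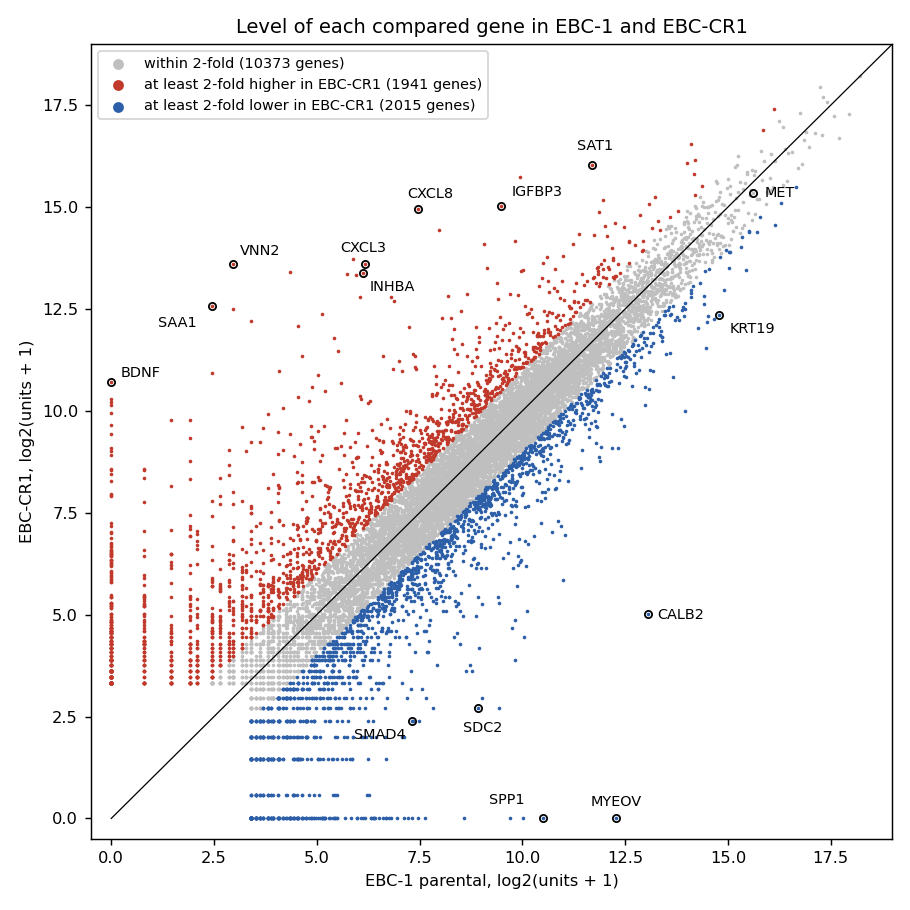
Each point is 1 of the 14329 compared genes, with its level in EBC-1 on the x axis and in EBC-CR1 on the y axis, both as log2(units + 1). Red points are at least 2-fold higher in EBC-CR1 (1941), blue at least 2-fold lower (2015), and MET, at 15.62 and 15.34, lies near the line of equality.

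The most abundant transcripts were partly different. Of the 100 highest genes of EBC-1, 65 were also among the 100 highest of EBC-CR1. Entering were SAT1, the enzyme that acetylates spermidine and spermine, at 11.68 and 16.04 (20.5-fold, interval of the log2 ratio 4.32 to 4.40), PEG10, a gene derived from a retrotransposon, at 14.09 and 16.55, and HSPA5, the main chaperone of the endoplasmic reticulum, at 14.19 and 16.14. C15orf48, a small mitochondrial protein gene induced in inflammation, stood at 9.94 and 15.74, rank 3998 in EBC-1 and rank 40 in EBC-CR1. Leaving were LMNA, the nuclear lamina protein, at 15.43 and 13.45, the epithelial keratin KRT8, at 15.01 and 13.50, and TUBA1B, a tubulin, at 16.14 and 14.56. Among the 965 genes at 12 or more in both libraries, 40 were higher and 51 lower by 2-fold. The lowest difference there was that of KRT19, another keratin of simple epithelia, at 14.77 and 12.34 (5.40-fold lower).

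NF-kB is a family of transcription factors held in the cytoplasm by inhibitor proteins, and its target genes include chemokines, acute phase proteins and its own inhibitors. Of 35 inflammatory targets on a list drawn up with earlier results of these data known, 33 were compared. Of these, 32 were higher by 2-fold or more and none was lower, with a median difference of 5.62. Over all genes 13.5% were higher and the median was -0.06. Of the 33 compared, 4 were at 0 in 1 of both libraries, and SAA1 and LCN2 were below the floor in EBC-1. For these members a difference was built into the choice. CXCL8, a chemokine that draws neutrophils, was at 7.47 and 14.95, 179-fold higher (interval of the log2 ratio 7.31 to 7.68). CXCL3, a chemokine of the same group, was at 6.17 and 13.59, and CXCL2 at 6.06 and 12.80. LCN2, an iron-binding acute phase protein, was at 2.95 and 12.51, and SAA1, serum amyloid A, at 2.46 and 12.58, from 8 and 5 estimated reads in EBC-1. The member that stayed within 2-fold was PTX3, a pattern recognition protein, at 8.19 and 9.11. TNF itself and VCAM1 were below the floor, with TNF at 0 and 3.17.

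The promoters of 5 of these genes are printed because their RNA was far higher in EBC-CR1 and each holds the NF-kB consensus, shown in capitals on whichever strand it was found, within the 250 bases before the RefSeq transcription start (GRCh38.p14, 5′ to 3′ on the gene's strand). The searched pattern is the standard NF-kB decamer, and overlapping matches in both directions merge into 1 run of capitals.
CXCL2 (chr4:74099196-74099445, minus strand): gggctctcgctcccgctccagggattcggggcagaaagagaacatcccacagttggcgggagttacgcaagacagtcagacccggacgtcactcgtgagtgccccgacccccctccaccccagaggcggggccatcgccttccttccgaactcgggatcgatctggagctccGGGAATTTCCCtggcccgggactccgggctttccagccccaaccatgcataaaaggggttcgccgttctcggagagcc
CXCL3 (chr4:74038690-74038939, minus strand): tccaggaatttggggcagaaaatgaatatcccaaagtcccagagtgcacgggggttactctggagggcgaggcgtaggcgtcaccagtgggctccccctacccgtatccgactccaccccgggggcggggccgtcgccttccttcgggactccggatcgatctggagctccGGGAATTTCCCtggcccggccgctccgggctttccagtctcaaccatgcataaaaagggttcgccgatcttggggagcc
LCN2 (chr9:128149203-128149452, plus strand): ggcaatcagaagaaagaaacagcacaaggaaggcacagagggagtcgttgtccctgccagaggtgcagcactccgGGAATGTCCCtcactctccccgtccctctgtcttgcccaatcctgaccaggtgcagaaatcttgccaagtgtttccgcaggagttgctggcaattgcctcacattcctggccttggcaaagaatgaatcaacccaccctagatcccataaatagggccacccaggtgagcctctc
TNFAIP3 (chr6:137867009-137867258, plus strand): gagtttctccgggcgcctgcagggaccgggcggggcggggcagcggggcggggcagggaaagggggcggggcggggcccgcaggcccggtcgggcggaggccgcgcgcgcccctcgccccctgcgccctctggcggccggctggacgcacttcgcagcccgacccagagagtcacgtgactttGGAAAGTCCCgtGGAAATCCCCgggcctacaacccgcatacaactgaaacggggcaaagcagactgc
BIRC3 (chr11:102317234-102317483, plus strand): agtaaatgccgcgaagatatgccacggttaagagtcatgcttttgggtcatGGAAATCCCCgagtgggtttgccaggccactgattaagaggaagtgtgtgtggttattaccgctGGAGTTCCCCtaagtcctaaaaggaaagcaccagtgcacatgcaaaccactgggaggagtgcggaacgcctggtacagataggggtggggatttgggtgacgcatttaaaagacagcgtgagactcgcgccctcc
Of the list's members, 27 had a promoter in the RefSeq table and 16 of them (59.3%) held the pattern in this window, against 2614 of all 27305 promoters (9.57%). CXCL2 and CXCL3 carry the same run of capitals, GGGAATTTCCC. For CXCL8 the pattern was not found in this window, which says only that these letters are not there. A match is a description of the letters and not a bound site.

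The list of NF-kB factors and their regulators had a lower median difference than the target list. The lists share members such as NFKBIA and were both chosen with earlier results known, so their medians are only set side by side. Of 14 such genes, all compared, 10 were higher (71.4%) and none lower, with a median of 1.58. Over all genes the shares were 13.5% and 14.1%. The largest differences were in the feedback inhibitors. TNFAIP3, which takes ubiquitin off signalling proteins, was at 6.79 and 12.78 (63.5-fold), and TNIP3, its binding partner, stood at 0 and 9.08. NFKBIA, the inhibitor IkB alpha, was at 12.25 and 14.62 (5.14-fold), while RELA, the p65 subunit, differed by 0.38, at 12.95 and 13.33. BIRC3, an inhibitor of cell death that NF-kB induces, was at 8.35 and 12.01.

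**Figure D2:**
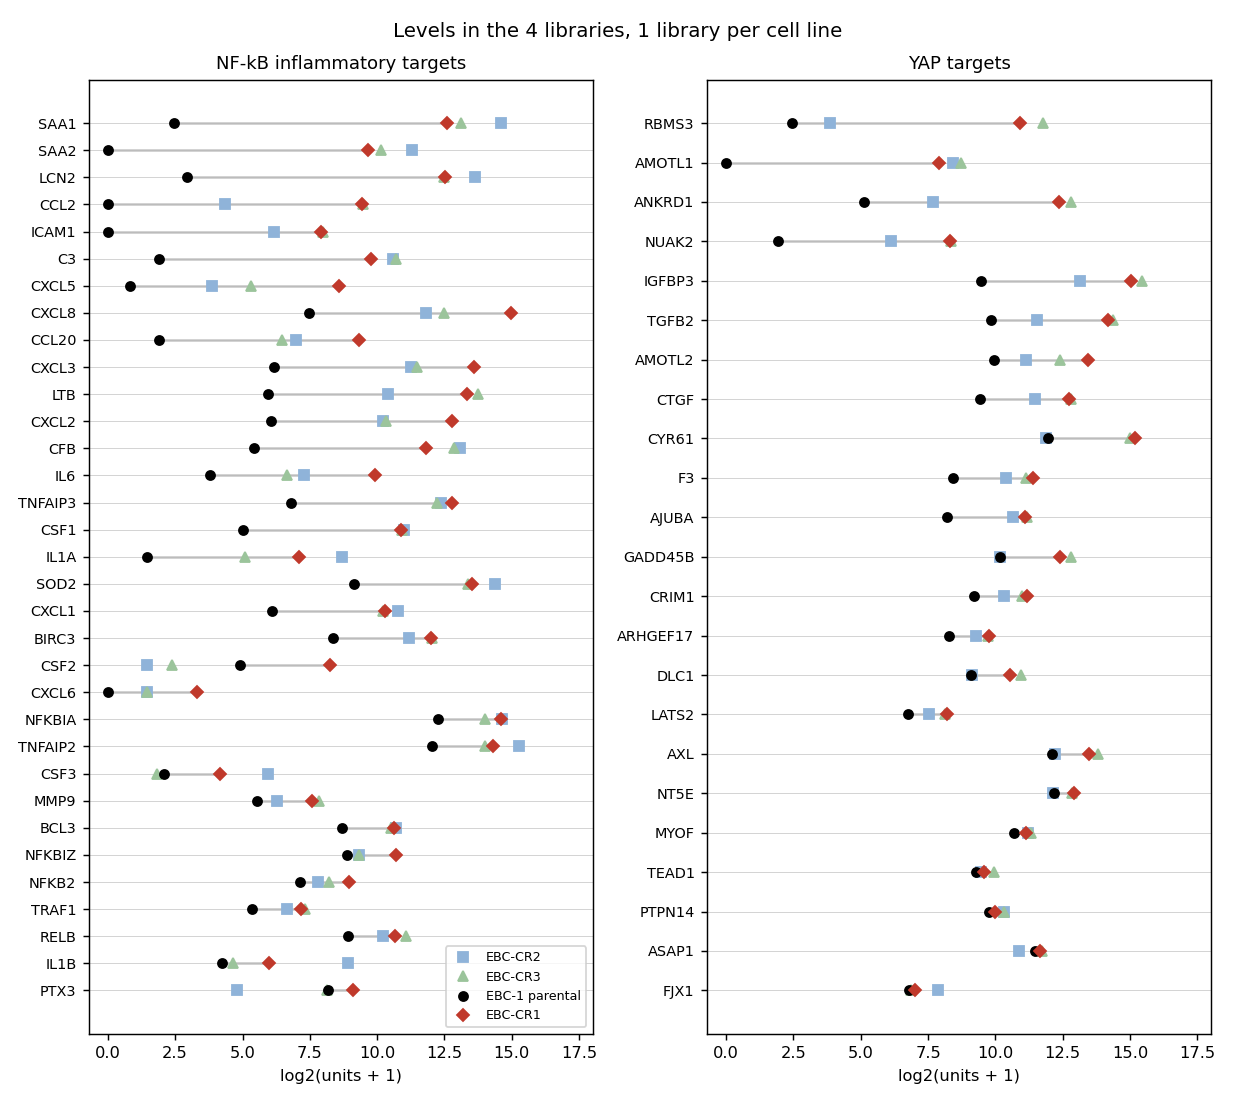
Levels of the compared members of the NF-kB inflammatory target list (left) and the YAP target list (right) as log2(units + 1), with 1 symbol for the library of each cell line and a grey bar from EBC-1 to EBC-CR1. In both panels the red EBC-CR1 symbols lie to the right of the black EBC-1 symbols, and CXCL8 reaches 14.95 in EBC-CR1.

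The lists overlap, and several chemokines and C3 and CFB are also on the NF-kB target list. Of 24 chemokines, 15 were compared, 13 higher (86.7%) and 1 lower (6.67%), against 13.5% and 14.1% over all genes. Their median was 4.36, or 3.64 when genes at 0 are put at the value of 3 reads. Of the 15, 4 were at 0 in 1 of both libraries, and CCL20 was below the floor in EBC-1. For these members a difference was built into the choice. CCL20, which attracts dendritic cells and lymphocytes, was at 1.91 and 9.34, and CCL2, the monocyte chemokine, stood at 0 and 9.44. CX3CL1, a membrane-bound chemokine, was the member that was lower, at 7.31 and 5.62. Of the 13 genes of the interleukin 6 and colony-stimulating factor list, 12 were compared, 7 higher and 1 lower (median 1.47). IL6 was at 3.81 and 9.92, CSF1, the macrophage growth factor, at 5.02 and 10.89, and OSMR, the oncostatin M receptor, at 9.90 and 11.55, while IL6ST, the signalling chain shared by the receptors for IL6 and oncostatin M, was at 10.28 and 10.15. The interleukin 1 family went both ways: IL1A was at 1.46 and 7.08, but the receptor antagonist IL1RN stood at 6.08 and 0, and the signalling receptor IL1R1 at 4.36 and 0.

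Of 18 acute phase genes 9 were compared, 6 higher (66.7%) and 1 lower (11.1%). Of 20 complement genes 15 were compared, 6 higher (40%) and 2 lower (13.3%), with a median of 0.50. Over all genes the shares were 13.5% and 14.1%. Of the 9 acute phase genes, 4 were at 0 in 1 of both libraries. SAA1 and LCN2, and C3 of the complement list, were below the floor in EBC-1. For these members a difference was built into the choice. C3, the central complement protein, was at 1.91 and 9.77, and CFB, a factor of its alternative pathway, at 5.41 and 11.80. SERPINA1, the elastase inhibitor alpha-1 antitrypsin, was lower, at 11.26 and 10.11. The 3 vanins, enzymes that split pantetheine, were below the floor in EBC-1 and passed it only through EBC-CR1. For them a higher level was built into the choice. VNN2 was at 2.95 and 13.60, and VNN1 and VNN3, both at 0 in the parental line, reached 9.96 and 6.51. DEFB4A and DEFB4B, which encode the same antimicrobial defensin and cannot be told apart by these reads, were at 0 in the parental line and reached 9.02 and 8.92. SOD2, the mitochondrial superoxide dismutase, was at 9.13 and 13.51, whereas the secreted SOD3 was at 7.62 and 0.

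MHC class II molecules present peptides to helper T cells and are usually low in epithelial cancer cells. Of 13 genes of this list, 11 were compared, 10 higher (90.9%) and none lower, with a median of 4.17. Over all genes the shares were 13.5% and 14.1%. Of the 11, 2 were at 0 in EBC-1, and HLA-DMA and HLA-DPA1 were at 2.09 and 2.95 there. These passed the floor only through EBC-CR1, so a higher level was built into the choice. HLA-DRB1, a beta chain, was at 6.87 and 12.68 (56.4-fold), HLA-DRA, its alpha chain partner, at 7.25 and 12.07, and the invariant chain CD74 at 10.76 and 13.01. CIITA, the activator of these genes, differed by 0.58, at 7.34 and 7.92. The HLA genes are near-identical copies, so reads may be split between them. Class I differed less, with 2 of 15 compared genes higher (13.3%, near the 13.5% over all genes) and none lower. The higher genes were HLA-E at 9.61 and 11.23 and HLA-F at 7.31 and 8.80. B2M, the class I light chain, was at 16.25 and 17.11.

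Interferon-stimulated genes leaned the other way, with 9 of 38 compared members (23.7%) higher and 14 (36.8%) lower and a median of -0.72. Over all genes the shares were 13.5% and 14.1%. XAF1, a pro-apoptotic interferon target, was at 8.58 and 0, EPSTI1 was at 5.86 and 1.46, and SAMD9, an antiviral factor, at 10.65 and 8.46. GBP2, a guanylate-binding protein, was higher, at 5.85 and 8.75.

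YAP is the coactivator restrained by the Hippo pathway, and it acts through TEAD factors on genes of adhesion and growth. Of 24 targets, 23 were compared, 17 were higher (73.9%) and none lower, with a median of 2.24. Over all genes the shares were 13.5% and 14.1%. The targets RBMS3, NUAK2 and AMOTL1, at 2.46, 1.91 and 0 in EBC-1, passed the floor only through EBC-CR1. For them a higher level was built into the choice. ANKRD1, a nuclear ankyrin repeat protein, was at 5.12 and 12.37 (152-fold), and CYR61, a matricellular protein, at 11.95 and 15.17. CTGF, its relative, was at 9.41 and 12.74. NUAK2, a kinase, was at 1.91 and 8.32, and AMOTL1, a YAP-binding junction protein, stood at 0 and 7.92. IGFBP3, which binds insulin-like growth factors, was at 9.48 and 15.04 (47.0-fold).

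The promoters of CTGF and ANKRD1 (the same RefSeq source, build and 250-base window) are printed because both hold more than 1 copy of the TEAD core CATTCC. All of these copies lie on the opposite strand and so appear as GGAATG, in capitals.
CTGF (chr6:131951373-131951622, minus strand): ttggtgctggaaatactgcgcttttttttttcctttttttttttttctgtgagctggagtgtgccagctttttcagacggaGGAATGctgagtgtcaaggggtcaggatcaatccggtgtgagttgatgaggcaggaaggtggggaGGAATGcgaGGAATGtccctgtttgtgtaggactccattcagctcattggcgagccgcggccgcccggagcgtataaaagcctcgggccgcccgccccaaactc
ANKRD1 (chr10:90921088-90921337, minus strand): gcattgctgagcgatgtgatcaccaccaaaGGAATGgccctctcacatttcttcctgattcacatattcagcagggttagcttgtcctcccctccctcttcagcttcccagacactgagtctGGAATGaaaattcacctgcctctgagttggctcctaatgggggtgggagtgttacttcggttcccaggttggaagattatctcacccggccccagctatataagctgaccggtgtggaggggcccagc
Of the list's members, 18 had a promoter in the table and 6 (33.3%) held the core on either strand, against 11.9% of all 27305 promoters. The list was drawn up as YAP targets with earlier results of these data known, and a match describes the letters and not a bound site. No core was found in the window of AMOTL2, which was at 9.96 and 13.42.

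AP-1 factors and ERK feedback genes report on the pathway that MET drives. Of 14 AP-1 and EGR genes, 8 were higher and 2 lower: FOS was at 8.78 and 11.23, FOSB at 7.38 and 11.08 and ATF3 at 8.51 and 12.44, while FOSL1 was at 13.81 and 12.22 and BATF was at 6.39 and 0. Of 19 compared genes of the ERK list, 5 were higher (26.3%) and 8 lower (42.1%), with a median of -0.49. Over all genes the shares were 13.5% and 14.1%. DUSP6, the phosphatase that turns ERK off, was at 13.09 in the parental line, with a difference of -2.09 (4.26-fold lower). ETV4, an ETS factor, was at 11.11 and 8.27, and PHLDA1 at 14.26 and 12.04. Others on that list were higher: MYC was at 8.19 and 10.52 (5.01-fold) and IER3, also an NF-kB target, at 13.99 and 16.09.

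MET itself was at 15.62 and 15.34. Of 12 compared genes of its axis, 2 were higher (16.7%) and none lower, against 13.5% higher and 14.1% lower over all genes. Higher were the serine protease ST14, which activates the MET ligand, at 12.93 and 14.16, and the related protease HPN, at 0 and 3.88. In the ERBB family EGFR was at 8.57 and 10.57, ERBB2 at 11.31 and 11.73 and ERBB3 at 8.12 and 7.05. Of 10 other receptor kinases compared, 6 were higher and 1 lower: AXL was at 12.11 and 13.49 and INSR, the insulin receptor, at 7.70 and 9.78, while MERTK, a relative of AXL, was at 7.37 and 5.33. SGK1, a kinase downstream of phosphoinositide 3-kinase and of steroid receptors, was at 4.63 and 11.34. It is 1 of the 2 genes higher (11.8%) among 17 of the phosphoinositide 3-kinase list, of which 2 were lower (11.8%). These shares are near those over all genes. The mineralocorticoid receptor NR3C2 was at 0 and 10.22, and the glucocorticoid receptor NR3C1 was at 13.62 and 14.37.

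TGF-beta family signalling genes were split, 10 of 31 higher (32.3%) and 6 lower (19.4%), against 13.5% and 14.1% over all genes. INHBA, the activin A subunit, was at 6.12 and 13.38 (153-fold), TGFB2 at 9.83 and 14.18, and the co-receptor TGFBR3 at 0 and 6.72. SMAD4, the shared mediator of this family, was at 7.31 and 2.39, the latter from 4 estimated reads. Of 9 compared plasminogen system genes 5 were lower (55.6%) and 1 was higher (11.1%).

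Genes of cell shape and attachment showed a mixed picture. Of 12 compared genes of the mesenchymal list (of 20), 7 were higher and 4 lower. SNAI1, a repressor of epithelial genes, was at 5.29 and 8.09, LOX, a collagen cross-linking enzyme, at 5.92 and 9.23, and LOXL2, its relative, at 8.45 and 5.29. E-cadherin (CDH1) was at 13.47 and 14.28 and N-cadherin (CDH2) at 11.87 and 13.07, so the epithelial and the mesenchymal cadherin were both abundant in EBC-CR1. CLDN1, a tight junction protein, was at 9.39 and 13.13, and P-cadherin (CDH3) at 10.62 and 13.18. Of 16 compared integrins 7 were lower and 2 higher, against 14.1% lower and 13.5% higher over all genes. ITGA6 was at 12.68 and 10.60 and its partner ITGB4 at 11.62 and 9.37, while the leukocyte chain ITGB2 was higher, at 3.39 and 9.23. Of 18 laminin and syndecan genes 6 were lower and 2 higher, with the laminin chain LAMA3 at 10.71 and 7.02 and LAMA4 at 7.71 and 9.80. COL17A1, the hemidesmosome collagen, was at 9.01 and 2.95.

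Of 24 compared collagen and matrix genes, 14 were higher (58.3%) and 7 lower (29.2%), against 13.5% and 14.1% over all genes. COL8A1, a short-chain collagen, was at 7.98 and 14.44 (87.6-fold), COL12A1 at 3.70 and 9.58, and CCDC80, a matrix protein, at 9.08 and 14.10. SPP1, osteopontin, was at 10.50 and 0, and TNC, tenascin C, at 10.29 and 6.92. Of 13 S100 and EF-hand genes compared, 8 were lower (61.5%) and 3 higher (23.1%). CALB2, the calcium-binding protein calretinin, was at 13.05 and 5.02 (261-fold lower, interval of the log2 ratio -8.68 to -7.53), and S100A6 was at 14.47 and 11.54. Of 22 compared HOX genes 11 were lower (50%) and 2 higher (9.09%), with HOXC13 at 7.08 and 3.32.

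The squamous label was checked against 29 squamous genes, of which 12 were compared and 8 were higher, against 13.5% over all genes. Of these 12, 6 were at 0 in 1 of both libraries and passed the floor only through the other. For them a difference was built into the choice. TP63, the defining factor of squamous cells, stood at 0 and 6.65, and SOX2, a factor amplified in such tumours, was at 6.45 and 9.33. The squamous serpins SERPINB3, SERPINB4 and SERPINB13, all at 0 in the parental line, reached 6.56, 8.28 and 6.05. The keratins that define basal squamous cells, KRT5 and KRT14, were at 0 in all 4 libraries. Other genes of the list were abundant in the parental line. SFN, the 14-3-3 sigma protein, was at 13.86 and 13.14, and PERP, a desmosome protein, at 11.22 and 10.51. Of the 29 genes, 16 were at 0 in EBC-1, so the markers of the label were present there only in part. The keratins of simple epithelia KRT8 and KRT19 stood at 15.01 and 14.77 in EBC-1. Of 23 lung gland and neuroendocrine genes, 5 were compared, 1 higher (NKX2-1, at 1.91 and 3.88) and 2 lower.

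Cell cycle genes differed in part. None of 32 mitosis genes passed 2-fold in either direction (median 0.11). Of 33 DNA replication genes none was higher and 7 were lower (21.2%, median -0.73), against 14.1% lower over all genes. TYMS, thymidylate synthase, was at 11.53 and 9.69 and PRIM1, a primase subunit, at 7.19 and 5.52. MCM7, a helicase subunit within 2-fold, was at 14.66 and 13.77. CCND2, a G1 cyclin, was at 5.73 and 13.37 (199-fold), while CCND1 was at 11.60 and 10.42. The inhibitor CDKN2A was at 7.42 and 11.02. In the BCL2 family BBC3 (PUMA), which promotes cell death, was at 9.71 and 12.86 and MCL1, which opposes it, at 13.59 and 14.76.

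Stress and metabolic lists differed from one another, as the plot of lists shows, beside 13.5% higher and 14.1% lower over all genes. Of 20 compared endoplasmic reticulum genes 4 were higher (20%) and none lower (median 0.59). Of 25 serine synthesis and ATF4 genes 7 were higher (28%) and none lower, with STC2, a secreted glycoprotein, at 11.38 and 14.33. Of 31 cholesterol synthesis genes 7 were lower (22.6%) and none higher (median -0.53). Of 29 NRF2 targets 1 was higher (3.45%) and 4 were lower (13.8%). Glycolysis had 2 of 23 higher (8.7%) and 5 lower (21.7%), with PKM, pyruvate kinase, at 15.70 and 14.38. Of 47 respiratory chain genes 1 was higher (2.13%) and 2 were lower (4.26%). BCAT1, which starts the breakdown of branched-chain amino acids, was at 5.87 and 13.73 (232-fold).

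**Figure D3:**
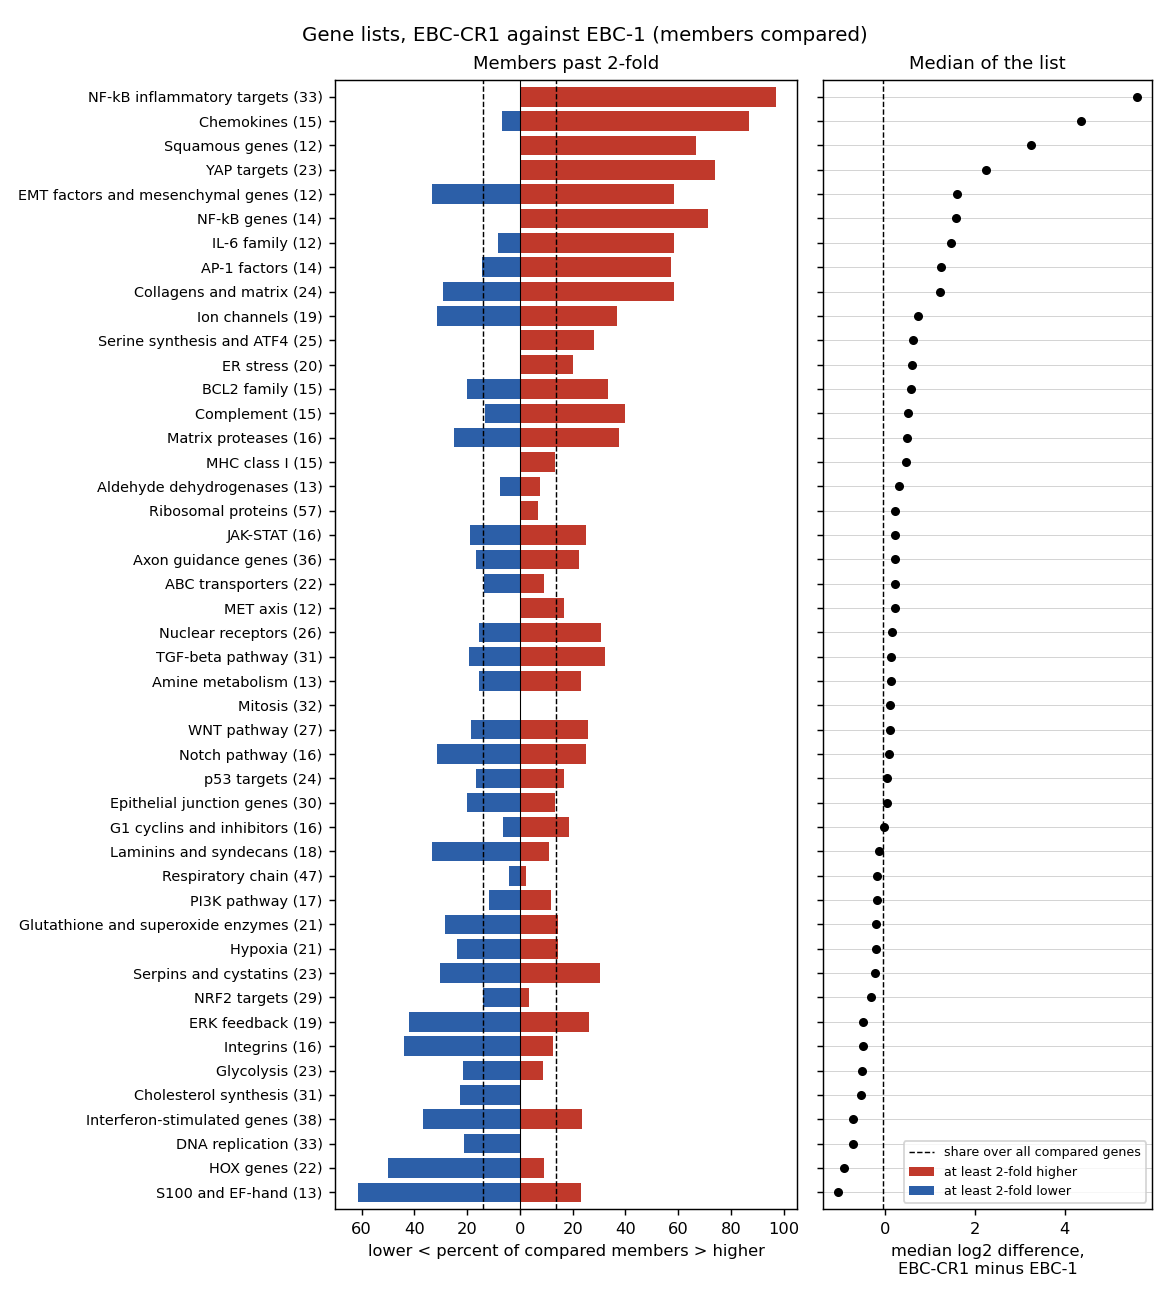
Each row is a gene list with at least 12 compared members (number in brackets), ordered by its median difference. The left panel gives the percent of compared members at least 2-fold higher (red) or lower (blue) in EBC-CR1, with dashed lines at the shares over all genes (13.5% and 14.1%), and the right panel gives the list's median log2 difference, with a dashed line at -0.06 for all genes. NF-kB inflammatory targets stand at the top with a median of 5.62.

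Among genes listed at 0 in 1 of both libraries, 252 were past the floor in EBC-CR1 and 179 in EBC-1. Besides NR3C2, VNN1 and CCL2, those at high levels in EBC-CR1 included BDNF, a neurotrophin, at 10.70, SNCAIP, which binds alpha-synuclein, at 10.28, DMD, dystrophin, at 10.15, and MAOA, an amine oxidase, at 8.56. Besides SPP1, those at high levels in EBC-1 included MYEOV, a gene near CCND1 that is amplified in some tumours, at 12.28, PLXNA4, a semaphorin receptor, at 10.02, and EPHB6, an ephrin receptor without kinase activity, at 9.69. For members compared only because 1 line was past the floor, a difference is built into the choice, so list counts are descriptions.

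To see where EBC-CR1 stands among the resistant lines it was compared with EBC-CR2 and EBC-CR3 directly, over 14538 genes. It was at least 2-fold above both in 534 (3.67%) and below both in 582 (4.0%). Of the 33 NF-kB inflammatory targets 9 were above both and 1 was below both. Of 16 chemokines 7 were above both. The 5 blood genes described further on were above 0 in EBC-CR1 alone, and the part of blood RNA in these counts was not tested. CXCL8 was at 14.95 in EBC-CR1 against 11.80 in EBC-CR2 and 12.49 in EBC-CR3, IL6 at 9.92 against 7.27 and 6.64, and CXCL5 at 8.57 against 3.86 and 5.33. CSF2, the granulocyte-macrophage growth factor, was at 8.26 against 1.46 and 2.39, both below the 4.92 of EBC-1. NRARP, a target and inhibitor of Notch, was at 11.35 against 7.96 and 8.53, with 6.61 in EBC-1. Of 17 Notch pathway genes 2 were above both and 1 below both. HES1, another Notch target, was at 13.62 against 12.80 and 11.79, within 2-fold of EBC-CR2. MIR147B was at 12.08 against 9.40 and 9.495, but it lies in C15orf48, whose reads cannot be told apart from it and which, at 15.74 against 15.07 and 15.11, was within 2-fold of both.

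Of 21 hypoxia response genes, 8 were at least 2-fold below both other resistant lines, against 4.0% of all genes, none was above both, and 13 were neither. NDRG1, a hypoxia- and stress-induced gene, was at 12.31 against 15.25 and 15.10, with 13.94 in EBC-1. ADM, the vasodilator adrenomedullin, was at 9.17 against 11.15 and 11.66. MIR205HG, the host transcript of a microRNA of squamous and basal cells, was at 5.29 against 14.48 and 9.01, and FGF1 at 6.05 against 8.38 and 8.23. Of 16 complement genes in this comparison 5 were below both and 1 was above both. Among the former was C1R, a starting protease of the classical pathway, at 7.91 against 11.18 and 9.86. Each resistant line was compared with the same parental library, so the list medians are only set side by side. In the order of the lines' numbers they were 4.17, 5.25 and 4.11 for MHC class II, 2.24, 1.05 and 2.45 for YAP targets, and 0.11, -1.67 and -0.09 for mitosis. For hypoxia genes they were -0.22, 0.88 and 1.16.

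**Figure D4:**
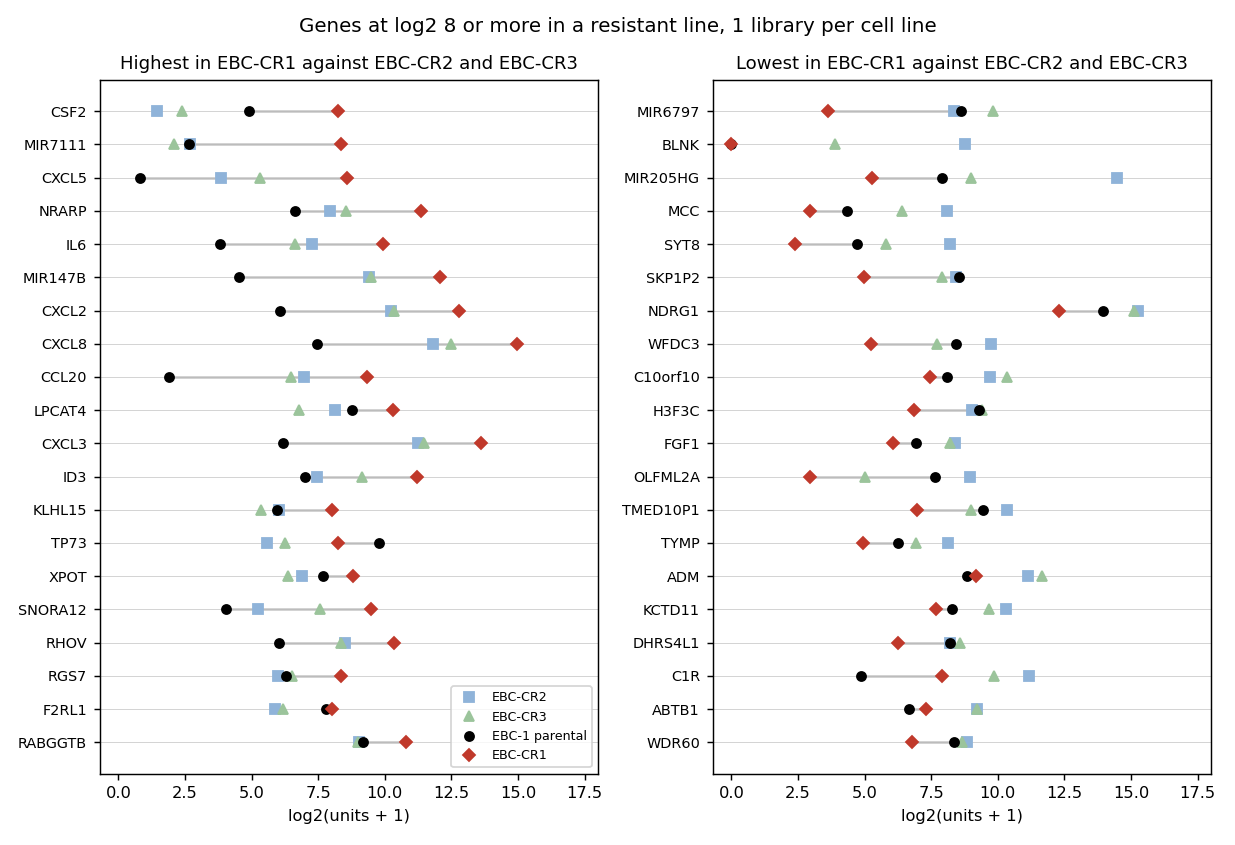
Levels as log2(units + 1) of the 20 genes highest (left) and 20 lowest (right) in EBC-CR1 against both other resistant lines, among genes at 8 or more in a resistant line. Each symbol is 1 library, the grey bar joins EBC-1 and EBC-CR1, and CSF2 heads the left panel at 8.26 in EBC-CR1.

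Differences also followed gene order. Of the genes at 100 units or more in either library, 10470 could be placed on chromosomes by RefSeq gene order, and the median difference was highest on chromosome 19 (0.38 over 669 genes) and lowest on chromosome 20 (-0.34 over 311) and chromosome 7 (-0.32 over 527). Over 9918 windows of 25 neighbouring genes, the central 95% of medians ran from -0.79 to 0.63. The lowest window was on chromosome 7 from TRIP6 to NAPEPLD, with a median of -1.20, 18 of 25 genes at least 2-fold lower and none higher. It holds ORAI2, a calcium channel gene, at 13.30 and 12.18, and ARMC10 at 13.60 and 12.38. The next lowest, from PPP1R9A to FAM200A on the same chromosome, had a median of -1.06 and holds the actin-branching genes ARPC1A, at 14.67 and 12.25, and ARPC1B, at 13.50 and 11.38. Elsewhere on chromosome 7, the window from TTYH3 to DAGLB had a median of 0.88, with 11 of 25 genes at least 2-fold higher, none lower, and all 25 differences above 0. Within 2-fold there were RAC1, a small GTPase of cell movement, at 14.70 and 15.65, and ACTB, beta actin, at 14.99 and 15.70. The highest window was AKAP8L to MVB12A on chromosome 19 (0.91), with 9 of 25 genes higher and 1 lower. In EBC-CR2 and EBC-CR3 the TRIP6 to NAPEPLD window had medians of -0.28 and -1.01 and the TTYH3 to DAGLB window 0.74 and 0.75. The AKAP8L to MVB12A window had -0.29 and 0.54, so its sign in EBC-CR2 was the opposite. Overlapping genes and copies in a window share reads, so its genes are not all independent.

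**Figure D5:**
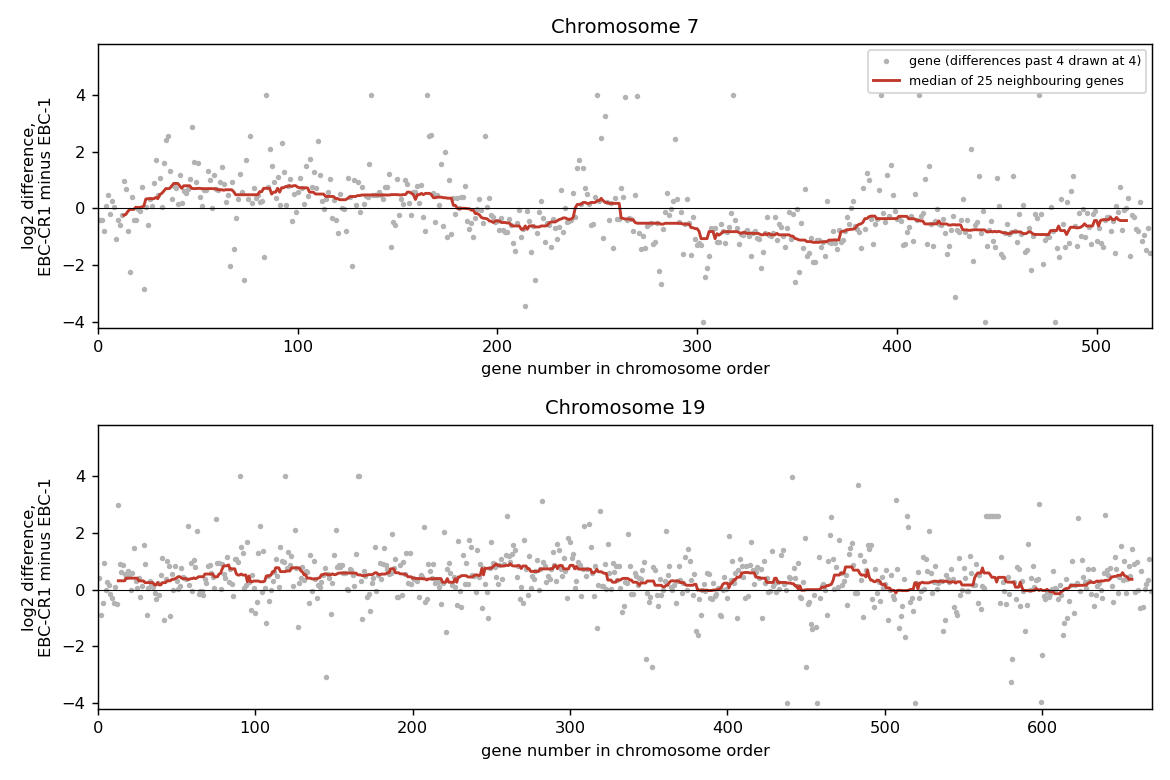
Log2 difference of EBC-CR1 minus EBC-1 for genes of chromosomes 7 and 19 in their order along the chromosome (x axis, gene number), with the median of 25 neighbouring genes in red. The red line of chromosome 7 is above 0 early on and reaches -1.20 at its lowest, and identical neighbouring values on chromosome 19 are the SNAR-A copies.

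Blood genes were set aside because they stood apart in this library. HBB, beta globin, was at 13.90 in EBC-CR1, HBA2 and HBA1, the alpha globins, at 11.61 and 9.21, the granulocyte receptor FCGR3B at 6.15 and the red cell glycophorin GYPC at 5.73, and all 5 were listed at 0 in EBC-1, EBC-CR2 and EBC-CR3. Together they made up 0.0765% of EBC-CR1 units. Of 26 red cell genes, 10 were above 0 in EBC-CR1 alone among the 4 libraries, and their summed level was 22626 units against 1462, 2893 and 3452 in EBC-1, EBC-CR2 and EBC-CR3. The same held for 7 of 21 granulocyte genes, 4 of 22 leukocyte genes and 1 of 10 platelet genes, with CSF3R at 3.75 and FPR1 at 3.61 among them, while the T cell and leukocyte markers CD3D and PTPRC were at 1.46. The granulocyte list summed to 26.3, 12950, 24680 and 14507 units in EBC-1, EBC-CR1, EBC-CR2 and EBC-CR3. It holds VNN2, which was as high in the other resistant lines, at 13.66 and 13.79. The leukocyte list summed to 1450, 1000.3, 2310 and 1184 units. CXCL8 and C15orf48, which blood cells also express, were 11.80 or more in EBC-CR2 and EBC-CR3, where the globins were listed at 0. CXCL8 was higher still in EBC-CR1, at 14.95. The part of blood RNA in any of the differences, those of CXCL8 and C15orf48 among them, was not tested. Of 10 fibroblast and 10 endothelial genes, 6 of each were at 0 in EBC-CR1. None of the fibroblast genes and 2 of the endothelial genes, PECAM1 and TEK, were above 0 in EBC-CR1 alone.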

How the data were processed

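RNA of 4 cultures, 1 per cell line, was sequenced from the 3′ end of transcripts (Lexogen QuantSeq), per the labels' protocols. Per the submitters' processing notes, Bowtie2, edgeR and hg19 were used, while the sources used here give neither settings, annotation nor strand handling. Each deposited table holds 1 log2 value per gene symbol. Undoing log2(x + 1) gave multiples of 0.25 units for 100% of values below 500 units, within 0.0025, and nearly the same sorted values in every library, a form that quantile normalization of counts would give; this is inferred from the values. Estimated reads came from the order of the 200 lowest distinct values.

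Differences of log2(x + 1), which understate changes of low genes, were taken between single libraries with a 2-fold threshold and no p-value. Members, 67 gene lists and the blood genes were chosen with earlier results of these data known. The named genes are the 15 highest and 15 lowest by counting bound, the 15 highest listed at 0 on either side, the 10 highest and 10 lowest at log2 12 or more, up to 6 per list and window, and 10 each way that set EBC-CR1 apart; not all are printed. ADM, AMOTL2, ARPC1B, BIRC3, C15orf48, C1R, CIITA, CTGF, CX3CL1, DUSP6, FGF1, IGFBP3, KLRC1, KLRC2, MIR205HG, PECAM1, SOX2, TEK and TUBA1B are outside that rule and were named after their values were seen. Gene order is from RefSeq GRCh38.p14 (25089 symbols matched), promoters likewise. The calculation was tested on simulated data. Alternatives were a pseudocount of 5, no floor or a floor of 50 units, a 4-fold threshold, centring on the median, the counting interval, names by header and, added after seeing the data, list medians with genes at 0 put at 3 reads. Calculations ran in Python 3.11.15 with scipy 1.17.1, pandas 2.3.3 and numpy 2.4.6, and figures in matplotlib 3.10.9.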

Additional observations from a re-analysis of the deposited data

Results flagged for a closer look

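Some genes and lists lay on one side of the parental level in EBC-CR1 and on the opposite side in another resistant line, each against the same parental library and with 1 library a line, so the difference was not tested. NDRG1 differed from EBC-1 by -1.63 in EBC-CR1, whereas EBC-CR2 differed by 1.31 and EBC-CR3 by 1.16. MIR6797 was at -5.02 in EBC-CR1 and at 1.17 in EBC-CR3. The median of the interleukin 1 family stood at 1.74 for EBC-CR1 against -0.74 for EBC-CR2. That of interferon-stimulated genes stood at -0.72 for EBC-CR1 against 0.74 for EBC-CR2.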

How the results depend on the processing

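No paired analysis was possible because each cell line has 1 library. With 1 library a side, the counts describe these libraries and no spread between cultures is known. Depth limits the low genes: a floor of 50 units left 1294 lower genes, and 54 and 30 genes listed at 0 in EBC-1 and EBC-CR1; with no floor these were 1486 and 1092. A 4-fold threshold gave 887 higher and 681 lower genes, and the counting interval past 2-fold left 1090 lower. With a pseudocount of 5, 452 of 456 named genes kept their direction and side of 2-fold, and with differences centred on their median 442 did. List results moved too, by the measure used below for the header naming. Of 128 list counts, 37 moved with a floor of 50 units and 19 with no floor. A 4-fold threshold moved 72 and the counting interval 30. Of 64 list medians, 9 moved with a floor of 50 units and 21 with no floor. The pseudocount of 5 moved 4 list counts and centring 5, and neither moved a median.

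If the column headers are right and the values of EBC-CR3 belong to EBC-CR1, 332 of 456 named genes keep direction and side of 2-fold, 39 are no longer past 2-fold, 26 become so, 15 have a difference of 0 under 1 of both namings, and 27 within 2-fold change sign, PRSS3 among them, to -4.09. Past 2-fold, 17 turn: CSF2 to -2.53, CSF3 to -0.28, POSTN to -2.64, MXRA8 to -1.0, MIR7111 to -0.56, LINC00987 to -0.37, NDRG1 to 1.16, MIR6797 to 1.17, SERPINA1 to 0.89, PAOX to 0.71, ALDH1L1 to 1.46, ANK1 to 1.89, CLEC7A to 2.29, HCG14 to 1.80, HIF3A to 2.35, NR5A2 to 2.07 and PROM1 to 1.99. The TRIP6 to NAPEPLD window then has a median of -1.01. Of 128 list counts 36 then move by over 1.5 times, and 22 of 64 list medians and 3 of 23 chromosome medians also move. The cause was not tested.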

Other observations

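All 6 compared genes of the 13 on the neurotrophin list were higher in EBC-CR1, against 13.5% over all genes. BDNF, NRTN and NTF4, at 0, 0.81 and 2.95 in EBC-1, passed the floor only through EBC-CR1. For these genes a higher level was built into the choice. NGFR, a neurotrophin receptor, was at 3.88 and 6.35 and ARTN, a ligand of the RET pathway, at 4.88 and 6.29. Of 36 compared axon guidance genes 8 were higher (22.2%) and 6 lower (16.7%), near the shares over all genes of 13.5% and 14.1%, with SEMA5A at 2.09 and 6.81 and NRP2, a semaphorin co-receptor, at 9.40 and 5.43. Among nuclear receptors the thyroid hormone receptor THRB was at 4.54 and 10.34.

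On chromosome 12, the window from LINC00987 to DDX47 had a median of 0.91 but 12 of its 25 genes below 0. The natural killer receptor genes KLRC1, at 5.58 and 9.13, and KLRC2, at 4.63 and 8.74, stood out there; they are near-identical copies and were chosen after their values were seen. Of 10 compared genes of prostaglandin synthesis 5 were higher (50%) and 2 lower (20%), against 13.5% and 14.1% over all genes. Of these 10, 4 were at 0 in 1 of both libraries, so for them a difference was built into the choice. PTGS2, the inducible cyclooxygenase, was at 2.09 and 6.24 and also passed the floor only through EBC-CR1. HPGD, which degrades prostaglandins, was at 5.41 and listed at 0.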
